A study of Mus musculus with 9 samples.

Results

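The genes of the presynaptic vesicle release machinery were followed in sorted hippocampal neuronal nuclei of WT mice, Tg4-42 mice and Tg4-42 mice given caffeine. The members were chosen by gene symbol. They comprise the synaptotagmins (Syt), syntaxins (Stx), syntaxin binding proteins (Stxbp), vesicle-associated membrane proteins (Vamp) and the Snap genes. The complexins (Cplx), Rims, Sv2, synapsins (Syn1, Syn2, Syn3), Unc13, synaptogyrins (Syngr), Doc2, Syp, Bsn, Pclo and Nsf complete the set, and Stxbp6 was left out because it marks dentate granule cells. The rule found 79 members among the 48709 genes of the count files. Of these, 73 passed the filter on low counts and were tested, and Cplx4, Stx11, Syngr4, Syt8, Syt15 and Vamp5 were not. Because the rule goes by symbol, it also holds Snap91, which encodes a clathrin adaptor and no SNARE, and several syntaxins and Vamp genes known mainly for other membranes.

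Each of the 3 groups held 3 mice on a C57BL/6J background. Tg4-42 mice overexpress human Abeta4-42, fused to a thyrotropin-releasing hormone signal peptide and driven by the murine Thy1 promoter in neurons, and were kept as homozygotes. Caffeine was given in the drinking water at 0.3 mg/ml from 2 months of age for 4 months, and the WT and untreated Tg4-42 mice drank tap water. All mice were killed at 6 months of age, nuclei were prepared from frozen hippocampi, and NeuN-positive nuclei were sorted. Caffeine-treated WT mice were not analysed here, so an effect of caffeine was measured in the transgenic mice only.

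At a presynaptic terminal, vesicles filled with transmitter dock at the active zone, a protein lattice of Bsn, Pclo, Rims and Unc13 proteins that also primes them for fusion. Fusion is driven by SNAREs, in which a vesicle protein (Vamp1 or Vamp2) zips up with proteins of the plasma membrane (Snap25 and Stx1a, for example) under the control of syntaxin binding proteins and complexins. Some, but not all, synaptotagmins and Doc2 proteins bind calcium and trigger the last step. Nsf takes the spent SNAREs apart, and synapsins, synaptogyrins, Syp and SV2 proteins belong to the vesicle itself. Most of these proteins come in families, and hippocampal cell types use different members of the same family.

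Promoters are shown for the genes called between caffeine-treated and untreated Tg4-42 mice, Cplx2 and Sv2b, and for a relative of each, Cplx1 and Sv2a. They are the 250 bases before a RefSeq start in the GRCm38.p6 build, at chr13:54302306-54302555 on the plus strand for Cplx2, chr5:108550028-108550277 on the minus strand for Cplx1, chr7:75309263-75309512 on the minus strand for Sv2b and chr3:96180977-96181226 on the plus strand for Sv2a. Capitals mark GGGCGG (an Sp-factor box) or TATAAA on either strand; TGACG, the core of a cyclic AMP response element, was searched as well and is in none of these windows. The motifs share no bases with each other in these windows.
Cplx2: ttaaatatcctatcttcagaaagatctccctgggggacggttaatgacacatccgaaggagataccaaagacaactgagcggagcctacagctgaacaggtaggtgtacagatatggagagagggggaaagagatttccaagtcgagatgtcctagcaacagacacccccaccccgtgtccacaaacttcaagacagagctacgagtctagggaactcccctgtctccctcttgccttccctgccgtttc
Cplx1: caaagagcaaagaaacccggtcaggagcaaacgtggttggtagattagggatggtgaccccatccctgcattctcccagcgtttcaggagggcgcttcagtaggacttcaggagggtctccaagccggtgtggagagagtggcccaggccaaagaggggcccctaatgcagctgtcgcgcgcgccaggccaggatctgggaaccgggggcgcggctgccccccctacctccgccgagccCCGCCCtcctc
Sv2b: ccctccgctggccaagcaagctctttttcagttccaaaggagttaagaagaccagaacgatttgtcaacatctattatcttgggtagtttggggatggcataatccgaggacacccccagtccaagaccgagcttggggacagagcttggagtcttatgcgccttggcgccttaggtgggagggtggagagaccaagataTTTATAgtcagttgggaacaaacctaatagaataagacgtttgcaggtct
Sv2a: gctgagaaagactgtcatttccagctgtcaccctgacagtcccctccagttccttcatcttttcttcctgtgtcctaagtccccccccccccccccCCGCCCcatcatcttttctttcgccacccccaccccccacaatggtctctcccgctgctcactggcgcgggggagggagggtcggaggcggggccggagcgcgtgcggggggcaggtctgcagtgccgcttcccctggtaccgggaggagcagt
The windows of Cplx1 and Sv2a each hold a GGGCGG, and 64.8% and 66.0% of their bases are G or C. The window of Sv2b holds TATAAA on the reverse strand and that of Cplx2 holds none of the motifs, with 48.8% and 50.8% G or C. The RefSeq start used for Cplx2 lies 68794 bases from the start of the gene model with which the counts are paired here, and Sv2b has 4 promoters in the table, of which the one nearest its gene start is shown. RefSeq promoters were found for 59 of the 79 members, 74 windows in all. GGGCGG was in 59.5% of them and in 32.7% of all 32851 promoter windows of the same length, TGACG in 16.2% and 17.8%, and TATAAA in 5.41% and 12.4%. These shares are descriptions of letters, and no binding was measured.

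The libraries held 9342945 to 16376922 counts on exons, so 3 counts corresponded to 0.183 to 0.321 CPM, a gene's counts relative to the total of its library. Library sizes were adjusted by TMM, and CPM were compared between mice for 1 gene at a time, and CPM per kilobase of exon where genes are compared with each other. Trh, part of the transgene construct, was at 48.0 to 64.7 CPM in the 6 transgenic mice and 1.81 to 4.39 in the WT mice, so no library went against its genotype label. All 9 mice had Ddx3y, on the Y chromosome, between 108 and 157 CPM and Xist between 0.482 and 2.23 CPM. These levels mark all 9 as male. By the file names, replicates 1 and 2 of each group were read on lane 6 and replicate 3 on lane 7, and replicate numbers in the text follow the order of deposit.

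Marker genes of hippocampal cell types differed between the libraries, and these values stand before the results because the members are not used equally by all neurons. The summed level of 10 dentate granule cell markers was 613 to 817 CPM in WT, 442 to 935 in Tg4-42 and 1007 to 1298 in caffeine-treated mice. With caffeine all 10 lay above 0 on the log2 scale, and Plk5 and Stxbp6 passed the test. The marker lists were chosen with earlier results of these data known, and the study itself reports Dsp and Prox1 of this list as higher with caffeine. Agreement within a list is therefore a description and no independent evidence. The sum of 10 interneuron markers was 1179 to 1394 CPM in WT, 1143 to 1837 in Tg4-42 and 896 to 1027 in caffeine-treated mice. All 10 had a negative log2 fold change, and Slc32a1, the vesicular GABA transporter, passed. The 5 CA1 pyramidal markers summed to 441 to 601 CPM in WT, 419 to 486 in Tg4-42 and 357 to 373 in caffeine-treated mice. Tg4-42 replicate 3 stood apart, with the lowest dentate sum of all 9 libraries (442 CPM) and the highest interneuron sum (1837 CPM). The neuronal genes Rbfox3 (which encodes NeuN), Map2 and Tubb3 summed to 870.1 to 1060.0, 877 to 1089 and 862 to 949.8 CPM. Map2 makes up most of this sum, and the other genes moved in opposite directions with caffeine. Against untreated Tg4-42, Rbfox3 was at 0.28 ± 0.13 (SE), Map2 at -0.09 ± 0.15 and Tubb3 at -0.59 ± 0.17, and none passed the test. Astrocyte markers summed to 82.7 to 117, 91.7 to 102 and 67.7 to 87.6 CPM over 6 genes and oligodendrocyte lineage markers to 292 to 439, 332 to 466 and 231 to 337 over 7. Microglial markers were at 22.4 to 28.7, 25.4 to 32.5 and 18.2 to 22.0 CPM over 6 genes and the 3 endothelial markers were at 0.325 to 1.29 CPM. With bulk nuclei, fewer nuclei of a type and less RNA per nucleus cannot be told apart. The part of these shifts in the results below was not tested.

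**Figure D1:**
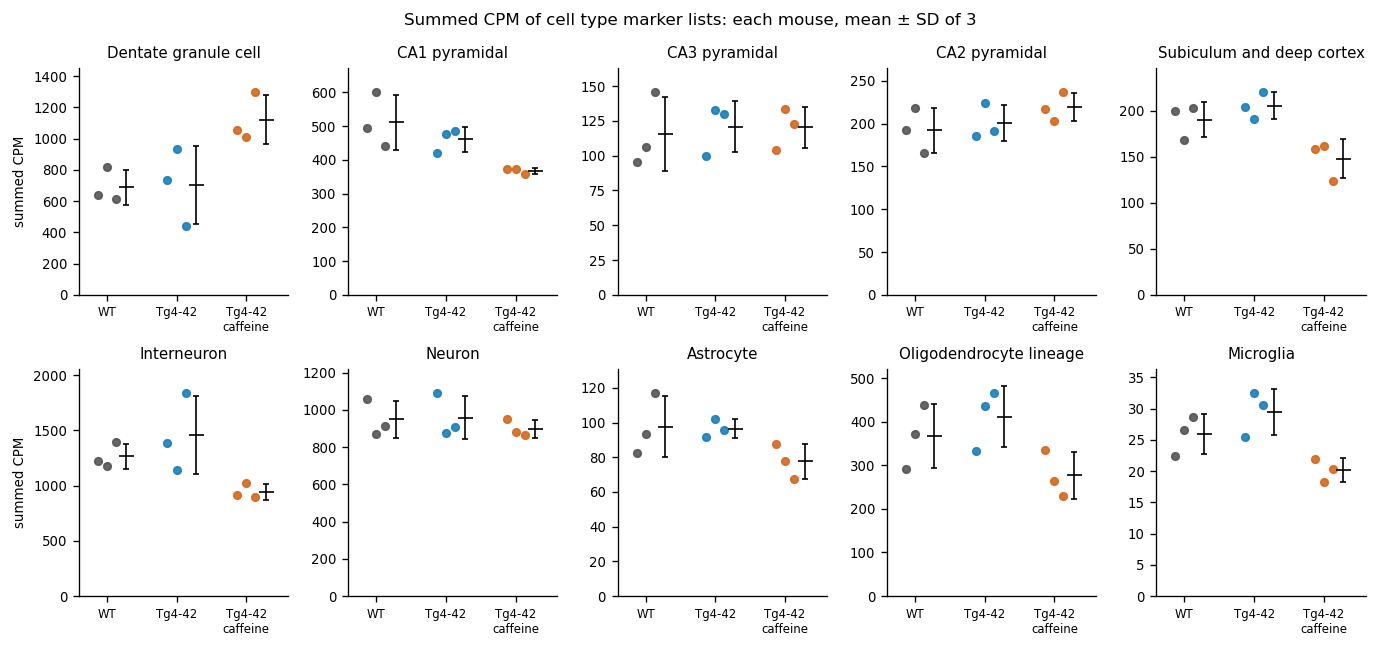
Summed CPM (vertical axes) of 10 cell type marker lists in each mouse; points are mice, bars the mean ± SD of 3 mice, and each panel has its own axis from 0. The dentate granule cell sums of the 3 caffeine-treated mice lie above the other 6, and their CA1, subiculum and deep cortex, interneuron and microglia sums lie below the other 6.

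The release machinery was among the more abundant transcripts by log CPM averaged over all 9 libraries, without correction for exon length. On this scale 57 of the 73 tested members lay above the median of all 17361 tested genes and 31 in their top 10%. In the 3 WT mice the members together took 1.89 to 2.04% of all counts. Per kilobase of exon, Snap25, the plasma membrane SNARE of neurons, was highest at 406 ± 20.3 CPM per kb (SD, n = 3), followed by the fast calcium sensor Syt1 at 365 ± 29.3, Syt11 at 321 ± 27.2 and Syngr3 at 315 ± 59.9. The values of the WT mice overlapped between Snap25 and Syt1 and between Syt11 and Syngr3, while Syt1 lay above Syt11 in all 3. Snap25 and Syt1 alone held 30.7, 27.7 and 28.4% of the members' counts in the WT mice.

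Levels differed widely within some families and less within others. Among vesicle SNAREs, Vamp2 was at 96.4 ± 18.5 CPM per kb and Vamp1 at 17.7 ± 0.972, and Stx1a, a syntaxin of the plasma membrane, was at 47.9 ± 16.8. Cplx1 lay above Cplx2, at 97.9 ± 7.67 against 23.1 ± 2.49 CPM per kb, and Sv2a and Sv2b at 142 ± 5.59 and 97.6 ± 11.4 were far above Sv2c at 3.19 ± 0.446. The large active zone genes were low on this scale, with Rims1 at 14.2 ± 1.55, Pclo at 12.1 ± 0.639, Unc13a at 7.97 ± 1.49 and Bsn at 4.64 ± 0.592 CPM per kb. Syt2, the fast sensor of hindbrain synapses and of some interneurons, was at 2.45 ± 0.705. The lowest tested members were Unc13d, known from cytotoxic granules, at 0.294 ± 0.0495, Doc2g at 0.735 ± 0.172 and Syngr2 at 0.828 ± 0.274 CPM per kb. The level of Doc2g is uncertain, because 1926 of its 3035 exon bases overlap other genes, the largest overlap being with Gm49405 on the same strand. Syt8 had no count in any of the 9 libraries.

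**Figure D2:**
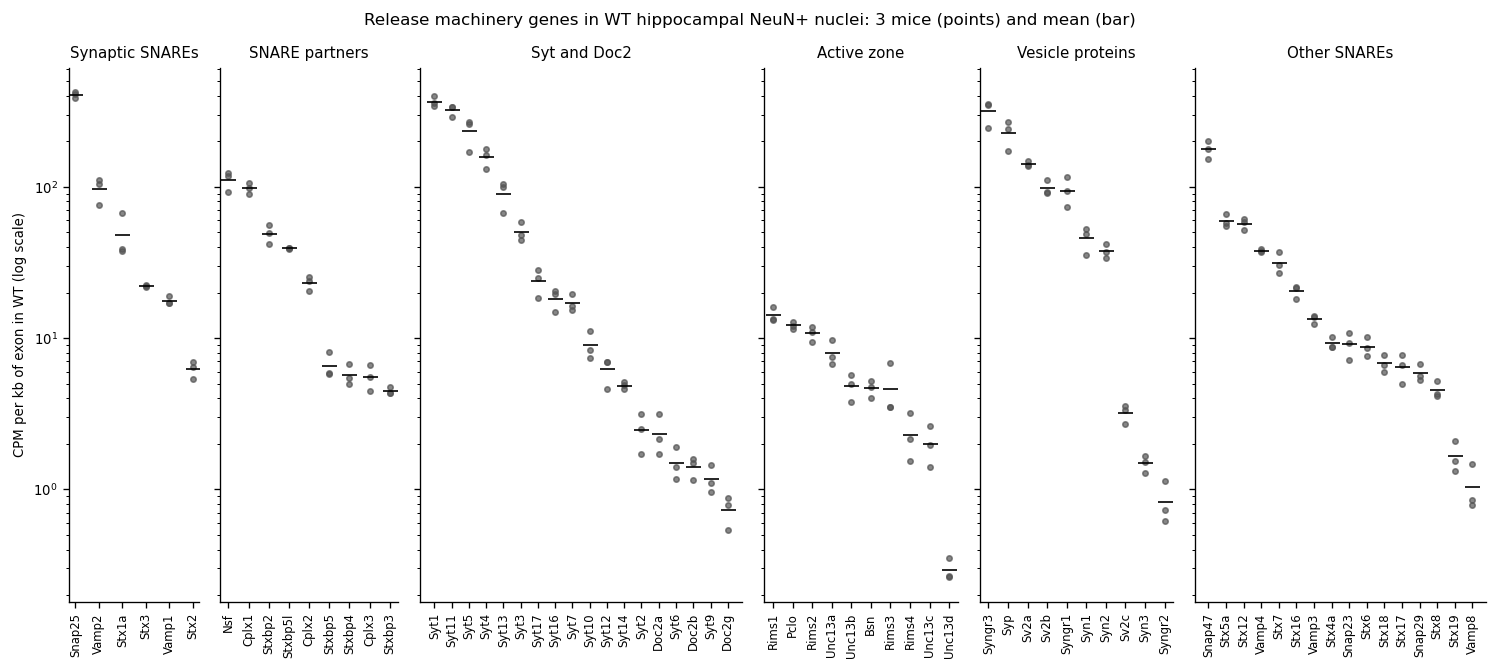
CPM per kilobase of exon (log scale) of 69 tested members in 6 groups by role, in the 3 WT mice (points) with their mean (bar), sorted within each role; Snap91 and Vamp9 are among those not plotted. Snap25 and Syt1 head the scale and the active zone genes stay near or under 14.2 CPM per kb.

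The comparison of untreated Tg4-42 with WT mice asks how these genes differ between the transgenic line and its controls. The transgenic mice were kept as homozygotes, so transgene and line go together, and an effect of the transgene alone was not tested. The study reports hippocampal neuron loss and fewer newborn neurons in untreated transgenic mice of this age. Those cells were counted in female mice only, while the mice sequenced here were male by Ddx3y and Xist. CPM are relative to the library and are not levels per neuron. No member passed the test (edgeR's quasi-likelihood test over 17361 genes, Benjamini-Hochberg adjusted p under 0.05), against 0.0979% of all genes tested. At an unadjusted p under 0.05 there was 1 member, against 2.74% of all genes, and DESeq2 and limma-voom called none either. The median log2 fold change of the 73 members was -0.00, beside 0.00 over all genes, with 37 members below 0 and 36 above, against 49.5% of all genes below 0. The member with the low unadjusted p was Stxbp5l, encoding tomosyn-2, which binds syntaxin and holds back SNARE assembly. It measured 336, 335 and 332 CPM in the WT mice, 528, 388 and 385 in the Tg4-42 mice and 421, 322 and 354 in the caffeine-treated mice. All 3 untreated Tg4-42 mice lay above the WT mice, with a log2 fold change of 0.37 ± 0.14 (SE; unadjusted p = 0.0199, not significant after adjustment across all genes in the edgeR fit), and the caffeine-treated mice overlapped both. The groups did not overlap for 2 members, both higher in Tg4-42, against 3.57% of all genes in this direction. Besides Stxbp5l this was Syngr2, at 1.10, 2.02 and 1.29 CPM in WT and 2.16, 2.57 and 2.17 in Tg4-42. For none of the 73 members did the groups separate in the lower direction, as they did for 3.16% of all genes.

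With caffeine the log2 fold changes of the members were more spread than between Tg4-42 and WT, and so were those of all genes. Their lower and upper quartiles with caffeine were -0.35 and 0.17 for the members and -0.23 and 0.19 for all genes. Between Tg4-42 and WT they were -0.06 and 0.06 for the members and -0.11 and 0.12 for all genes. Between caffeine-treated and untreated Tg4-42 mice Cplx2 rose and Sv2b fell, and these 2 of 73 members passed the test, against 0.881% of all genes tested. Of the members, 47 had a log2 fold change below 0, against 51.5% of all genes, and the median was -0.18 beside -0.01 over all genes. At an unadjusted p under 0.05 there were 11 members higher and 14 lower, against 7.15% and 9.82% of all genes. The 3 caffeine-treated mice lay above the 3 untreated Tg4-42 mice for 16 members and below them for 15, against 10.4% and 12.6% of all genes. The members' summed level was 18765, 20662 and 20829 CPM in the WT mice, 20219.6, 18709.6 and 22077 in Tg4-42 and 18748, 16342 and 15871 with caffeine. The treated and untreated transgenic mice overlapped on this sum by 1 mouse, and the most abundant members, Syt1 and Snap25, weigh most in it.

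Both calls rested on few mice. For the fits of this paragraph the shares of all genes called are not given, so their counts of members lack a background. Without Tg4-42 replicate 1, without Tg4-42 replicate 3 or without caffeine replicate 3 neither was called, without caffeine replicate 1 there were 4 called members, without caffeine replicate 2 there was 1, and without Tg4-42 replicate 2 there were 3. Cplx2 was not among the calls without caffeine replicate 1 (adjusted p = 0.0666) or Tg4-42 replicate 2 (adjusted p = 0.0858), nor Sv2b without caffeine replicate 2 (adjusted p = 0.0900). With only the compared groups in the fit, and with an exon length correction, Sv2b had an adjusted p of 0.0534 and 0.0511. The median of the members was -0.07 without Tg4-42 replicate 3, the library with the low dentate sum. With the sequencing lane as a covariate no member was called, and the adjusted p was 0.0668 for Cplx2 and 0.0688 for Sv2b. Within lane 6, with 2 mice per group and no test, the median was -0.07, and all 25 members with an unadjusted p under 0.05 kept their sign, although these mice also entered that p.

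**Figure D3:**
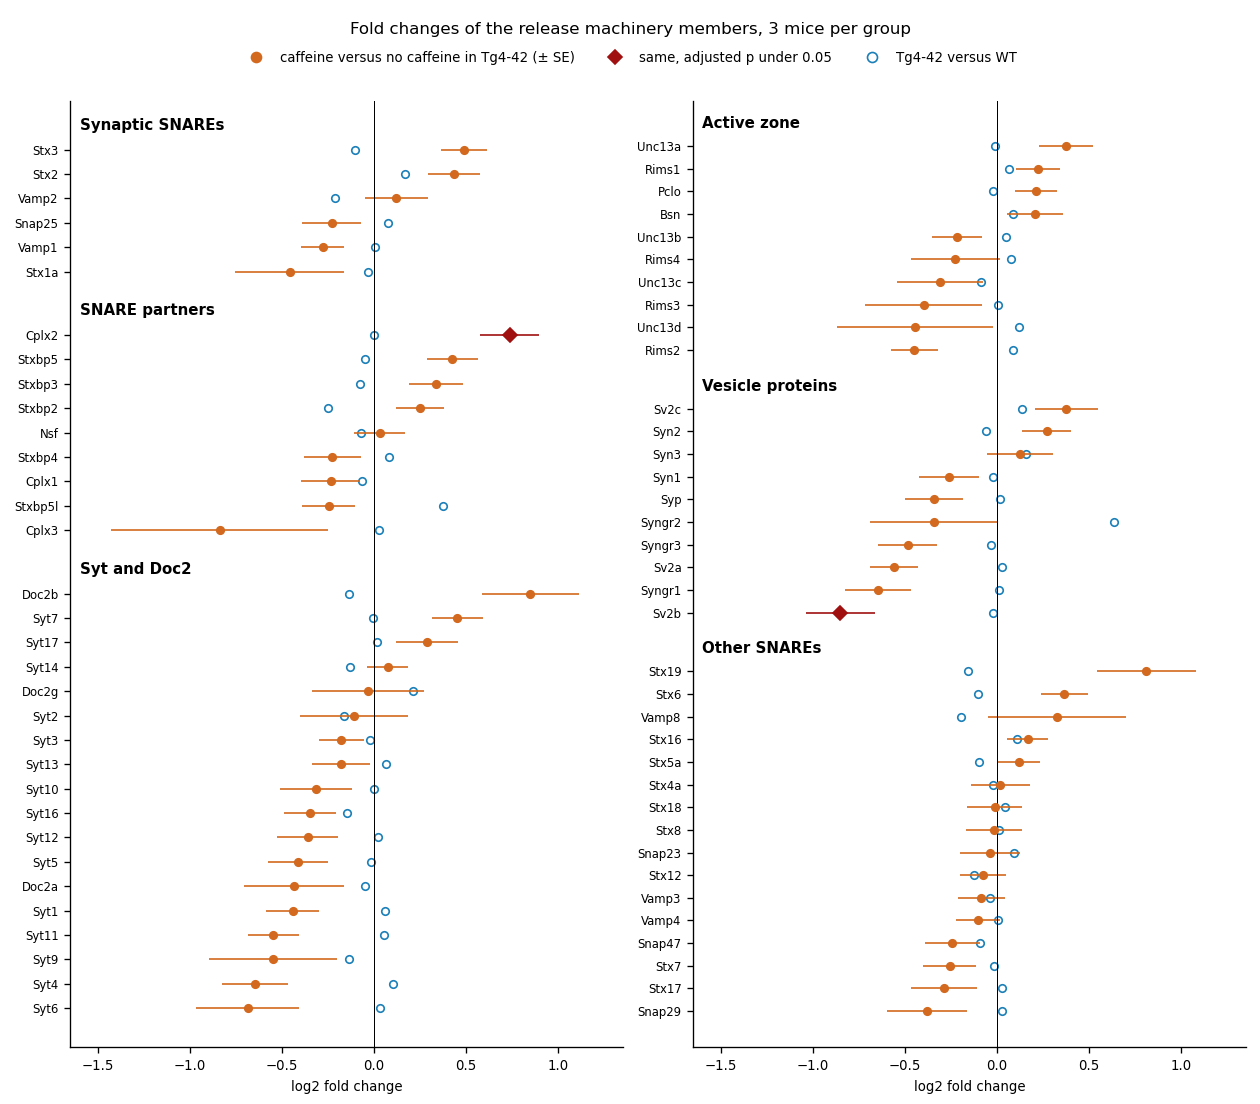
Log2 fold change (horizontal axis) of 69 tested members by role: filled symbols show caffeine-treated against untreated Tg4-42 mice with the SE, diamonds the 2 members with an adjusted p under 0.05, and open circles untreated Tg4-42 against WT. The open circles crowd around 0, while the filled symbols reach from -0.85 for Sv2b to 0.85 for Doc2b, with Cplx2 at 0.74. The fold changes of all genes, which are not plotted, were also more spread with caffeine.

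Among the SNARE partners Cplx2 was the only call. Complexins clamp partly zipped SNAREs and release them when calcium arrives. Cplx2 (ENSMUSG00000025867; chromosome 13, 54371349 to 54383917, plus strand) measured 117, 124 and 101 CPM in the WT mice, 133, 100.2 and 108 in the Tg4-42 mice and 209.9, 144 and 215 in the caffeine-treated mice. All 3 caffeine-treated mice lay above all 6 others, although replicate 2 was closest to them, and the log2 fold change against untreated Tg4-42 was 0.74 ± 0.16 (SE; adjusted p = 0.0462). Cplx1 (ENSMUSG00000033615; chromosome 5, 108518554 to 108550024, minus strand) measured 230.3, 216 and 197 CPM in the WT mice, 186, 169 and 259 in the Tg4-42 mice and 205, 151 and 166 in the caffeine-treated mice, with overlapping groups and a log2 fold change of -0.24 ± 0.16 (adjusted p = 0.483). Cplx3, known from retinal ribbon synapses and from subplate neurons of cortex, was at 18.1, 7.44 and 24.8 CPM in Tg4-42 and 17.9, 4.36 and 5.77 with caffeine, and its groups overlapped.

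The other SNARE partners moved less. Of the 10 tested, 5 had a positive and 5 a negative log2 fold change with caffeine, and Cplx2 alone passed. Nsf, the ATPase that takes SNAREs apart, was at 0.03 ± 0.14. Stxbp5, encoding tomosyn-1, measured 114, 97.7 and 103 CPM in Tg4-42 and 142, 129 and 150.3 with caffeine, a log2 fold change of 0.42 ± 0.14 (unadjusted p = 0.00752, adjusted p = 0.138). Its relative Stxbp5l, which had been higher in Tg4-42 than in WT, was at -0.25 ± 0.14 here. Stxbp2 and Stxbp3 were at 0.25 ± 0.13 and 0.34 ± 0.15, with no overlap between caffeine-treated and untreated Tg4-42 mice. For Stxbp2 this includes a level in untreated Tg4-42 of -0.25 ± 0.13 against WT, which did not pass the test. In caffeine-treated mice Stxbp2 was at -0.00 ± 0.13 against WT. Stxbp3, Stxbp5 and the other members outside the naming rule were chosen after their values were seen.

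A vesicle protein gene had the largest decrease with caffeine. SV2 proteins are transporter-like glycoproteins of the vesicle membrane that bind synaptotagmin, and Sv2a is the binding site of levetiracetam. Sv2b (ENSMUSG00000053025; chromosome 7, 75114894 to 75309262, minus strand) measured 757, 769 and 928 CPM in the WT mice, 665, 715 and 1042 in the Tg4-42 mice and 526, 473 and 344 in the caffeine-treated mice. Every caffeine-treated mouse lay below every other mouse, Tg4-42 replicate 3 was the highest of the 9, and the log2 fold change was -0.85 ± 0.19 (adjusted p = 0.0469). Sv2a (ENSMUSG00000038486; chromosome 3, 96181151 to 96195521, plus strand) measured 636, 650.2 and 686 CPM in the WT mice, 654, 613 and 743 in the Tg4-42 mice and 518, 419.8 and 423 in the caffeine-treated mice. Its groups did not overlap either, and the log2 fold change was -0.56 ± 0.13, with an adjusted p of 0.0534 that missed the threshold. DESeq2, limma-voom, the analysis without a low-count filter and that with a mean of at least 50 counts each called Sv2a lower. Sv2c, the member of the family with the lowest level per kb, measured 26.1, 34.4 and 32.4 CPM in WT, 34.2, 42.7 and 25.1 in Tg4-42 and 46.9, 41.6 and 44.3 with caffeine. It overlapped between treated and untreated transgenic mice through a single pair of mice, at a log2 fold change of 0.38 ± 0.17 (adjusted p = 0.284).

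Of the tetraspan vesicle proteins, Syngr1, Syngr3 and Syp were lower as well, without passing the test. Syngr2, at a low level, was at -0.34 ± 0.34, with overlapping groups. Synpr, a tetraspan vesicle protein outside the members named after its values were seen, was at 0.01 ± 0.13 (adjusted p = 0.986). Syngr1 measured 352, 451 and 558 CPM in the WT mice, 392, 426 and 554 in the Tg4-42 mice and 349, 273 and 256 in the caffeine-treated mice, and all 3 treated mice lay below all 6 others, at -0.65 ± 0.18 (adjusted p = 0.0964). Syngr3 was at -0.49 ± 0.16 and Syp, synaptophysin, at -0.34 ± 0.16 (adjusted p = 0.143 and 0.287), each with all treated mice below the untreated transgenic mice. Synapsins tether vesicles in the reserve pool. Syn1 was at -0.26 ± 0.16 and Syn2 at 0.27 ± 0.13, and both overlapped between the groups. Of the 10 vesicle protein genes tested, 7 were below 0 and 3 above.

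**Figure D4:**
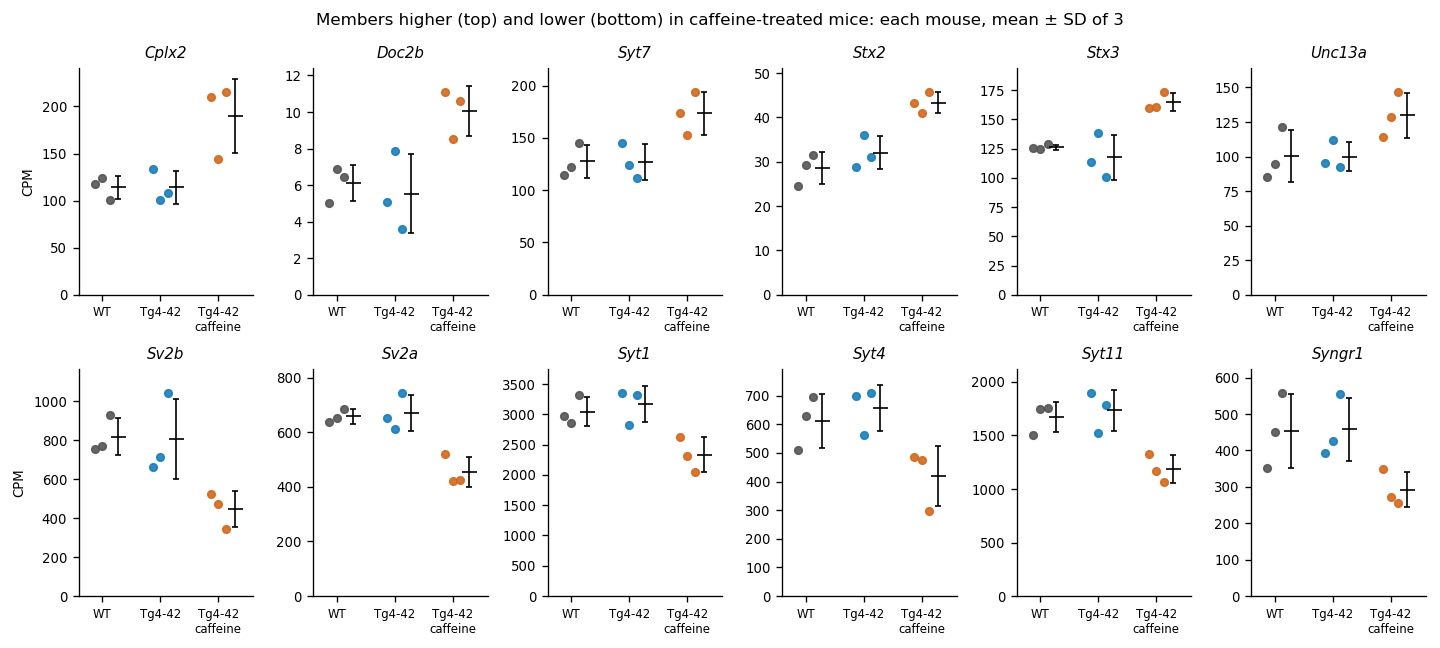
CPM of 12 members in each mouse (points) with the mean ± SD of 3 mice per group; axes start at 0 and differ between panels. Cplx2 of the caffeine-treated mice lies between 144 and 215 CPM, above the highest other mouse at 133, and Sv2b between 344 and 526, below the lowest other mouse at 665.

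Of the 18 tested Syt and Doc2 genes, 14 had a negative log2 fold change with caffeine, against 51.5% of all genes, the median was -0.33 beside -0.01, and none passed the test. An unadjusted p under 0.05 was found for 7 lower and 2 higher genes, against 9.82% and 7.15% of all genes, so the count of higher genes was near that share. Syt1, which triggers fast synchronous release, measured 2967, 2852 and 3321 CPM in the WT mice, 3351, 2832 and 3328 in the Tg4-42 mice and 2630.4, 2309.9 and 2055 in the caffeine-treated mice. The treated mice lay below all others, at -0.44 ± 0.14 (adjusted p = 0.132). Syt11 and Syt4, a closely related pair that binds calcium weakly or not at all and acts in membrane traffic, followed the same course. Syt11 measured 1507, 1747 and 1756 CPM in the WT mice, 1896, 1524 and 1782 in the Tg4-42 mice and 1328, 1166 and 1067 in the caffeine-treated mice, at -0.55 ± 0.14 (adjusted p = 0.0754). Syt4 measured 511, 628 and 696 CPM in the WT mice, 699, 564 and 709 in the Tg4-42 mice and 484, 474 and 298 in the caffeine-treated mice, at -0.65 ± 0.18 (adjusted p = 0.0952). Both lay below every other mouse in all 3 treated mice, and the lowest Syt4 value belonged to caffeine replicate 3. Syt5, a vesicle synaptotagmin, was at -0.41 ± 0.16 and Syt16 at -0.35 ± 0.14, each with all treated mice below the untreated transgenic mice. Syt6 had the most negative value of the synaptotagmins, -0.69 ± 0.28, at a low level of 6.60, 7.96 and 12.2 CPM in Tg4-42 and 5.29, 7.19 and 4.15 with caffeine, with overlap. Exons of Syt4 share 566 bases with the opposite-strand gene Gm26658, and the strand setting of the counting is not given in the sources used here, so reads there cannot be assigned to either gene.

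Syt7 and Doc2b had positive values, and neither passed the test. Syt7, a high-affinity sensor of asynchronous release and facilitation, measured 114, 122 and 146 CPM in the WT mice, 145, 124 and 112 in the Tg4-42 mice and 174, 153 and 194 in the caffeine-treated mice. The treated mice lay above all 6 others, at 0.45 ± 0.14 (adjusted p = 0.118). Doc2b, a high-affinity calcium sensor linked to spontaneous release, was scarce, with 5.02, 6.89 and 6.47 CPM in the WT mice, 5.09, 7.89 and 3.61 in the Tg4-42 mice and 11.1, 8.50 and 10.6 in the caffeine-treated mice. It again separated the treated mice from the rest, at 0.85 ± 0.26 (adjusted p = 0.124), the largest increase of any tested member. Doc2a, its relative, measured 4.79, 6.06 and 8.79 CPM in WT, 4.87, 5.90 and 8.19 in Tg4-42 and 5.44, 4.42 and 4.23 with caffeine, at -0.43 ± 0.27, with overlapping groups. Of the exon bases of Doc2a, 1103 of 2803 are shared with Ino80e on the opposite strand. Syt2, at -0.11 ± 0.29, overlapped as well, with caffeine replicate 1 at 24.1 CPM as the highest of the 9 mice.

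The SNAREs of the fusion machine itself gave values on both sides of 0. Snap25 measured 2786, 2876 and 2605 CPM in the WT mice, 2839, 2367 and 3509.6 in the Tg4-42 mice and 2862, 2351 and 2212 in the caffeine-treated mice, at -0.23 ± 0.16 (adjusted p = 0.492), with overlapping groups. Stx1a was at -0.46 ± 0.30, with a spread of 124, 89.3 and 161 CPM in Tg4-42 and 123, 70.9 and 78.6 with caffeine, and these overlapped. Vamp2 was at 0.12 ± 0.17 and Vamp1, used by faster-spiking neurons, at -0.28 ± 0.12, where all treated mice (139.7 to 166 CPM) lay below the untreated transgenic mice (168 to 190.4 CPM). Stx3, found on dendritic and ribbon synapse membranes, measured 126, 125 and 129 CPM in the WT mice, 114, 138 and 101 in the Tg4-42 mice and 160.1, 161 and 174 in the caffeine-treated mice. The treated mice lay above all 6 others, at 0.49 ± 0.13 (adjusted p = 0.0770). Stx2, a plasma membrane syntaxin of many tissues, measured 24.6, 29.4 and 31.6 CPM in the WT mice, 28.8, 36.1 and 31.1 in the Tg4-42 mice and 43.2, 41.1 and 45.7 in the caffeine-treated mice, with the same separation at 0.43 ± 0.14 (adjusted p = 0.134). None of the 7 synaptic SNAREs passed the test.

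Active zone genes lay on both sides of 0. Unc13a, the principal vesicle priming factor of the hippocampus, measured 85.5, 94.6 and 122 CPM in the WT mice, 95.5, 112 and 92.3 in the Tg4-42 mice and 114, 129 and 147 in the caffeine-treated mice, at 0.38 ± 0.15 (adjusted p = 0.206), and Unc13b, used by a minority of excitatory synapses there, measured 118, 111 and 112 CPM in Tg4-42 and 96.1, 101 and 95.5 with caffeine, at -0.22 ± 0.14. Unc13a was higher and Unc13b lower in every treated mouse than in every untreated transgenic mouse. Rims1, which links vesicles to calcium channels, was at 118, 97.6 and 98.5 CPM in WT, 121, 102 and 105 in Tg4-42 and 127, 126 and 130.0 with caffeine, at 0.22 ± 0.12, and its close relative Rims2 at 124, 98.3 and 113, 134, 107 and 115 and 91.4, 89.3 and 80.3 CPM, at -0.45 ± 0.13 (adjusted p = 0.362 and 0.101). Both separated the treated mice from all 6 others, in opposite directions. Of the giant scaffolds, Pclo was at 0.21 ± 0.12 and Bsn at 0.21 ± 0.15. No active zone gene passed the test, and 4 of 10 were above 0.

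SNAREs known mainly for other membranes, which work in the Golgi, in endosomes or outside neurons, are themselves members and enter the members' counts and medians. Of 18 listed, 16 were tested, 10 were below 0 and 6 above, the median was -0.03, and none passed. Stx19, a low-level syntaxin at 5.52, 4.04 and 3.05 CPM in Tg4-42 and 8.67, 6.50 and 6.77 with caffeine, was at 0.81 ± 0.27, and Stx6, of the Golgi and endosomes, at 0.37 ± 0.13. Among the other members, Snap91 was at 0.08 ± 0.11 and Vamp9, to which no role was assigned, at -0.22 ± 0.39. The 6 untested members had at most 0.647 CPM in any library.

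The opposite signs within families can be set out inside each library, free of scaling between libraries, as the ratio of the counts of related genes. The 9 pairs were chosen after the fold changes were seen, so the ratios describe the pattern and were not tested. They are not corrected for length, so only their differences between mice are read. Cplx2 over Cplx1 was 0.509, 0.577 and 0.511 in the WT mice, 0.715, 0.594 and 0.419 in Tg4-42 and 1.03, 0.956 and 1.30 with caffeine, a difference of 0.95 on the log2 scale between the treated and untreated Tg4-42 means. Rims1 over Rims2 was tightest, at 0.954, 0.993 and 0.868, 0.902, 0.950 and 0.915 and 1.39, 1.41 and 1.62, a log2 difference of 0.67. In these pairs the treated mice stood clear of the other 6. Doc2b over Doc2a differed by 1.33, Sv2c over Sv2b by 1.26, Syt7 over Syt1 by 0.90, Unc13a over Unc13b by 0.59 and Syn2 over Syn1 by 0.53, each with the treated mice outside the range of the 6 others. Stx3 over Stx1a differed by 0.96 and Vamp2 over Vamp1 by 0.43, and there the treated mice overlapped the other mice. Between untreated Tg4-42 and WT mice all 9 ratios overlapped. Tg4-42 replicate 3, lowest in dentate markers, had the lowest of all 9 values for Cplx2 over Cplx1, Doc2b over Doc2a, Sv2c over Sv2b, Syt7 over Syt1 and Stx3 over Stx1a, and a WT mouse or Tg4-42 replicate 1 had the lowest value for the other 4 pairs. The part of the marker shifts in these ratios was not tested.

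**Figure D5:**
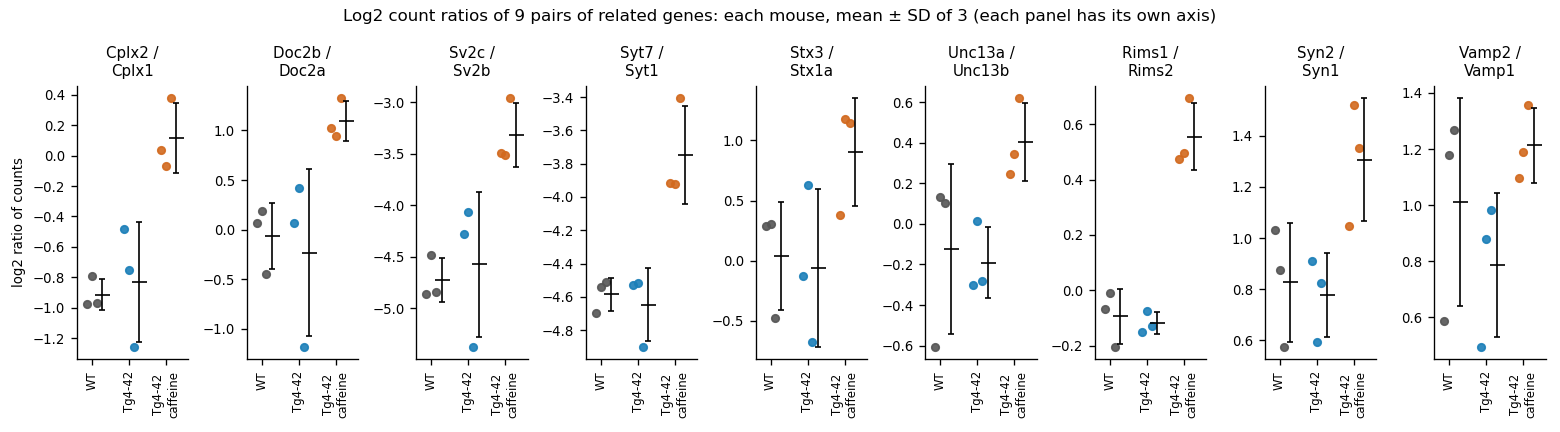
Log2 ratio of counts (vertical axes, 1 per panel) of 9 pairs of related members in each mouse, with the mean ± SD of 3 mice per group. For 7 pairs all 3 caffeine-treated mice lie above the other 6, and for Stx3 over Stx1a and Vamp2 over Vamp1 they overlap them.

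Against WT mice, the caffeine-treated Tg4-42 mice gave similar values for the members, but both comparisons use the same 3 treated mice, so they are no independent evidence of each other. No member passed the test here, against 0.415% of all genes, and 24 had an unadjusted p under 0.05, against 15.4%. The median was -0.12, beside -0.01 over all genes. DESeq2 called 8 members and limma-voom 1, and the shares of all genes called by these methods are not given here. Cplx2 was at 0.73 ± 0.16 (adjusted p = 0.0551) and Sv2b at -0.87 ± 0.19 (adjusted p = 0.0550), both just past the threshold against untreated Tg4-42 and just short of it here. Stx2, Sv2a and Rims1 were at 0.60 ± 0.14, -0.53 ± 0.13 and 0.29 ± 0.12. For 10 members the 3 treated mice lay above all 6 others and for 9 below, against 4.65% and 5.80% of all genes. The first were Cplx2, Doc2b, Pclo, Rims1, Stx2, Stx3, Stx16, Stx19, Stxbp3 and Syt7, and the second Rims2, Sv2a, Sv2b, Syngr1, Syt1, Syt4, Syt11, Syt16 and Vamp1.

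A further 42 genes that act beside the members (vesicle GTPases, SNAPs, active zone scaffolds, calcium channel subunits, transporters and endocytic factors) were all tested. With caffeine 18 were above 0 and 24 below, against 51.5% of all genes below, and the median was -0.02 beside -0.01. At an unadjusted p under 0.05 there were 3 higher and 6 lower genes, against 7.15% and 9.82% of all genes, so the count of higher genes was near that share. The only call was Slc32a1, which loads GABA into vesicles and is also among the interneuron markers above. It measured 12.9, 13.9 and 17.0 CPM in the WT mice, 16.3, 21.9 and 21.4 in the Tg4-42 mice and 8.38, 13.1 and 9.84 in the caffeine-treated mice, at -0.93 ± 0.20 (adjusted p = 0.0462). The treated mice lay below the untreated transgenic mice but overlapped the WT mice, and its change thus includes a level in Tg4-42 that was 0.45 ± 0.20 on the log2 scale against WT (not significant after adjustment). It was no longer called with the lane as a covariate, without caffeine replicate 1 or 3, or without any 1 of the 3 untreated Tg4-42 mice (Slc32a1 adjusted p = 0.0668 to 0.287). Rab3a, the vesicle GTPase that binds Rims, was at 0.05 ± 0.16, the SNAP Napb at -0.14 ± 0.15, the priming factor Cadps at 0.15 ± 0.11 and the scaffold Erc2 at -0.00 ± 0.15. Dnm1, which pinches off vesicles for reuse, was at 0.08 ± 0.17. None of these 5 passed the test. In Tg4-42 against WT none of the 42 genes was called, and 1 had an unadjusted p under 0.05, against 2.74% of all genes.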

How the data were processed

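RNA of NeuN-sorted hippocampal nuclei was sequenced in 9 mice as single 50-base reads from SMART-Seq v4 libraries. The authors mapped reads to mm10 with STAR, and deposited the counts of reads on the exons of each gene from featureCounts, as whole numbers without normalization. Groups were taken from genotype and treatment labels. The labels give 6 animals per group for the isolation and the study's methods 3, and 3 libraries per group were analysed here. Nothing pairs mice between groups. Symbols and positions came from GENCODE M21 for 48349 genes. A single symbol of the rule in that annotation has no row in the files.

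All 9 libraries entered a single model in edgeR 4.0.16 (R 4.3.3), with its default low-count filter (a minimum count of 10 and a total of 15), TMM scaling, and robust quasi-likelihood tests with Benjamini-Hochberg adjustment over 17361 genes. Standard errors came from the F statistic. DESeq2 1.42.0, limma 3.58.1 and the other alternatives are described at the end. Scripts were tested on simulated counts. The members and lists were chosen with earlier results of these data known. Named members are those called, the 3 largest increases and decreases per comparison, a core list, the 3 highest and lowest levels, and those without counts; Rims2, Stx2, Stx3, Stx6, Stxbp3, Stxbp5, Syngr1, Syngr3, Syt4, Syt5, Syt16, Stx16, Unc13b, Snap91 and Vamp9 were chosen after their values were seen. Some genes entered the counts and are not reported here by name.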

Additional observations from a re-analysis of the deposited data

How the results depend on the processing

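No member was called between Tg4-42 and WT under any of the 9 alternatives or with a mouse left out. Between caffeine-treated and untreated Tg4-42 mice, 2 members were called in the fit reported, 11 with DESeq2, 11 without a filter on low counts and 9 with limma-voom with quality weights, but 1 with only the compared groups in the fit, 1 with an exon length correction and 0 with the sequencing lane as a covariate. Leaving out a mouse gave 0 to 4. For caffeine-treated Tg4-42 against WT, 0 members were called in the fit reported, 8 with DESeq2, 13 without the filter, and 1 each with a mean of at least 50 counts, only the compared groups, limma-voom and edgeR's version 4 quasi-likelihood, and leaving out a mouse gave 0 to 2. The cause was not tested, except that DESeq2 and the unfiltered fit tested 78 members. Shares of all genes called in these other fits are not given here, so their counts are not read as particular to the members. The median log2 fold change between caffeine-treated and untreated Tg4-42 ran from -0.18 to -0.066 with a mouse left out, the latter without Tg4-42 replicate 3.

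Named values close to 0 changed sign. With a mouse left out, Tg4-42 against WT gave -0.13 to 0.082 for Cplx2, which was 0.0035 at a mean of at least 50 counts, and -0.26 to 0.10 for Sv2b. Caffeine against no caffeine gave -0.21 to 0.12 for Doc2g, -0.047 to 0.11 for Nsf, -0.58 to 0.11 for Syt2, -0.75 to 0.093 for Unc13d, -0.052 to 0.28 for Vamp2, -0.048 to 0.20 for Dnm1, -0.12 to 0.17 for Erc2, -0.26 to 0.028 for Napb and -0.043 to 0.18 for Rab3a. Erc2 was 0.0060 with DESeq2, 0.0059 with its size factors in edgeR, 0.012 without the filter, 0.0051 with the lane, 0.0070 with the length correction and 0.00080 with only the compared groups. For the 9 ratios of related genes, the difference between caffeine-treated and untreated Tg4-42 mice kept its sign with each mouse left out in turn. For 8 of the 9 pairs these groups did not overlap, so the sign could not change and the check is uninformative for them. The check was chosen after seeing the data, and it does not cover the comparisons with WT mice. No paired analysis was possible because the replicate numbers are only the order of deposit.

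Each group held 3 mice, so the p-values rest on a spread between few mice, estimated over all 9 libraries with information shared across genes. At these depths members under about 0.3 CPM, such as Cplx4 and Syngr4, could not be compared.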
